A study of Mus musculus with 8 samples.

Results

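Interferon-stimulated genes were examined in cells sorted from Eml4-Alk lungs as a list of 38 named genes. The rule that defines the list uses gene names and no measured value, although the list was drawn up with earlier results of these data known, and all 38 were matched among the 27179 genes of the count table. The 8 libraries came from lungs of C57BL/6 mice (C57BL/6J in the study's methods) that carried the Eml4-Alk rearrangement, labelled a translocation and made in the adult lung by an intratracheal adenovirus that delivers Cas9 and guide RNAs, so that tumor-bearing lung, not a uniform transgenic tissue, was the source. The mice were 18 to 22 weeks old, stood 11 to 12 weeks past tumor induction, and had received 4.5 nmol of QZ1-(PEG2K) by tail vein 2 h before the lungs were taken. QZ1 is a quenched Cy5 peptide probe that fluoresces once a protease has cut it. Live cells negative for the leukocyte proteins CD45 and CD11b were then divided by QZ1 signal, gated against EpCAM, into a QZ1-high (QZ1-hi) population of 4 libraries and a QZ1-low (QZ1-lo) population of 4 libraries. Both populations therefore share the genotype, the tumors and the probe, no library came from a healthy lung, and the labels do not show which libraries of the 2 populations came from 1 mouse.

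Interferons are secreted proteins that cells release when they sense foreign or misplaced nucleic acid, or, for interferon gamma, when lymphocytes are activated. Type I and type III interferons act through receptor-bound JAK kinases on a complex that holds STAT2 and IRF9 and binds the interferon-stimulated response element (ISRE), whereas interferon gamma acts through the gamma-activated site (GAS). The genes switched on in this way encode antiviral effectors, sensors that feed back on the pathway, and guanylate-binding proteins, and many of them are also expressed at a resting level in lung epithelium, endothelium and stroma.

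The promoters of 6 genes are shown first, because the results turn on 3 neighbouring Ifitm genes whose differences had opposite signs, on Gbp7 and Oas3, which had the largest rise among the 4 listed guanylate-binding protein (GBP) genes and the largest fall among the 5 listed oligoadenylate synthetase (OAS) genes, and on Isg15 as a much-used reporter of the pathway that was not called. Each run of 300 bases, 250 before and 50 after an annotated start, is from RefSeq on GRCm38.p6, written 5′ to 3′ on the gene's strand. Matches to the ISRE letters GAAANNGAAA on either strand are in capitals.
Ifitm1, chr7:140967826-140968125, plus strand: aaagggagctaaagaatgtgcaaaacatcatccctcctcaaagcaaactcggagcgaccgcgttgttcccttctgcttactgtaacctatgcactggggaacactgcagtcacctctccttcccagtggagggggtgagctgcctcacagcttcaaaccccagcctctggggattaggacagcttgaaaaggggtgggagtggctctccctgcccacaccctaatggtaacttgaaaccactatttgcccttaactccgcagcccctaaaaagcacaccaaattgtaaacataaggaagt
Ifitm2, chr7:140955912-140956211, minus strand: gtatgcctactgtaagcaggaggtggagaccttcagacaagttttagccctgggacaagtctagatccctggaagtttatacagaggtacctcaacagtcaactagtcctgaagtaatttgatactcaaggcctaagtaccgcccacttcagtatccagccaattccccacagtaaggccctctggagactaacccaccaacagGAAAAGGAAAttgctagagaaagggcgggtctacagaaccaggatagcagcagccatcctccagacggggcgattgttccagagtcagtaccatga
Ifitm3, chr7:141010695-141010994, minus strand: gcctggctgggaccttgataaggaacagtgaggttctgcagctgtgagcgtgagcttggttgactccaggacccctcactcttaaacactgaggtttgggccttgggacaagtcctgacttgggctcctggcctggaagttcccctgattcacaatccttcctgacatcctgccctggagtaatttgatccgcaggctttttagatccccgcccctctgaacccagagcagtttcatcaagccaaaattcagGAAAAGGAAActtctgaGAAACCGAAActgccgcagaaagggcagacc
Gbp7, chr3:142530086-142530385, plus strand: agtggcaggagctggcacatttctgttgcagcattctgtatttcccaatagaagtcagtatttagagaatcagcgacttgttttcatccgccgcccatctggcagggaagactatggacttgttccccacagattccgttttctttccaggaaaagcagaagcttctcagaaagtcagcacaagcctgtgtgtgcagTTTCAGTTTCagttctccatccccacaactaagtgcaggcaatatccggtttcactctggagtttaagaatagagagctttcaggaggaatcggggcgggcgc
Oas3, chr5:120777610-120777909, minus strand: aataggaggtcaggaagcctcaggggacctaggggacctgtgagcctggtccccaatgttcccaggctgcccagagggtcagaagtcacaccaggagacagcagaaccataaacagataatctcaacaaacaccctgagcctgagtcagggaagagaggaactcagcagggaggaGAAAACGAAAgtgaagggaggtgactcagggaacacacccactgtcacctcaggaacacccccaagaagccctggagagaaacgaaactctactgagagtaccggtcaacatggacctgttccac
Isg15, chr4:156200769-156201068, minus strand: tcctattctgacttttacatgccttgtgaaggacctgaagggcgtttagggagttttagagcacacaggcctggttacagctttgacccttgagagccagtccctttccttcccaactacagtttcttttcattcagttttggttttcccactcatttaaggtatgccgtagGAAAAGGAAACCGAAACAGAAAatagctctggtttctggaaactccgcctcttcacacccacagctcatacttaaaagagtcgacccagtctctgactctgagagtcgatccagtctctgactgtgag
The Ifitm1 window held no such match, the Ifitm2 window held 1 at position -46 from the start, and the Ifitm3 window held 2, both just past the start. For Ifitm1 and Ifitm2 the window lies inside the annotated span of the gene, and the outer end of that span was not searched. The Isg15 window held 3 that overlap each other in a single run. Windows were at hand for 28 of the 38 genes, and 15 of the 28 (53.6%) had at least 1 ISRE match, against 3.99% of 27025 genes with a window. The GAS letters TTCNNNGAA, also on either strand, were found for 9 of the 28 (32.1%) and for 9.55% of all genes with a window. By the outcome of the test below, an ISRE match was present for 5 of the 5 genes that rose, 2 of the 4 that fell and 8 of the 19 not called. A match in this window is a description of the letters and does not show that a factor bound there. The genes with no window were Dhx58, Zbp1, Mx1, Mx2, Oas2, Usp18, Parp9, Parp14, Ifi27 and Rtp4.

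The libraries held 18380918 to 26847938 counts, of which mitochondrial and ribosomal RNA genes took 43.7% to 65.6% in QZ1-hi and 34.0% to 53.2% in QZ1-lo. Levels are given as counts-per-million (CPM) on TMM-scaled library sizes, and 3 counts, taken as the limit of detection, corresponded to 0.0894 to 0.179 CPM. The interferon-stimulated genes lay well above that limit, between 0.636 and 168 CPM, with no fewer than 15 counts in any library, and all 38 passed the filter on low counts. The populations differed in cell makeup: all 10 endothelial markers were higher in QZ1-hi, with a summed level of 1047 to 2486 CPM against 78.7 to 320.1 CPM, as were all 7 fibroblast markers (1623 to 3165 against 39.7 to 357 CPM), all 4 mesothelial markers (38.4 to 268 against 5.93 to 36.5 CPM) and 4 of 8 pericyte markers (103 to 209.5 against 8.55 to 35.5 CPM). All 6 airway epithelial markers were lower (304 to 934 against 1453 to 3939 CPM), and of 9 alveolar epithelial markers 1 was higher and 3 lower (5872 to 10677 against 4827 to 7334 CPM). Single markers gave edgeR log2 fold changes of 3.54 (Cdh5, endothelial), 2.76 (Pdgfrb, pericyte), 3.26 (Col1a1, fibroblast) and -2.07 (Foxj1, airway epithelial) in QZ1-hi against QZ1-lo. Leukocyte transcripts were present despite the CD45 and CD11b gate, with a summed level over 14 markers of 517 to 1065 CPM in QZ1-hi and 404 to 775 CPM in QZ1-lo, none of the 11 tested was called, Ptprc, the gene of CD45 itself, stood at 71.4 to 222 CPM and 93.4 to 161 CPM, and no marker in any of these lists was at 0 in every library. The part of these cell makeup differences in the results below was not tested, and in bulk RNA fewer cells of a type and less RNA per cell cannot be told apart.

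QZ1-hi and QZ1-lo were compared to ask how cells with high and low probe signal differ within the CD45- and CD11b-negative gate. The interferon-stimulated genes did not move as a block. Of the 38 genes, 9 (23.7%) were called at an adjusted p under 0.05 in the quasi-likelihood test of edgeR, adjusted by Benjamini-Hochberg over 15583 genes, where 18.1% of all genes tested were called. The 5 that rose in QZ1-hi were Ifitm3, Ifitm2, Gbp7, Gbp5 and Gbp3, against a background of 9.88% of all genes called higher. The 4 that fell were Ifitm1, Oas3, Isg20 and Rsad2, against a background of 8.21% called lower. Their median log2 fold change was 0.03, beside 0.02 for all genes tested, and the median size of the log2 fold change irrespective of sign was 0.32, beside 0.33. A log2 fold change within ±0.5 was found for 60.5% of them and for 62.8% of all genes. The 4 values of each population did not overlap for 10 of the 38 (26.3%), 6 higher and 4 lower in QZ1-hi, beside 22.6% of all genes tested.

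**Figure D1:**
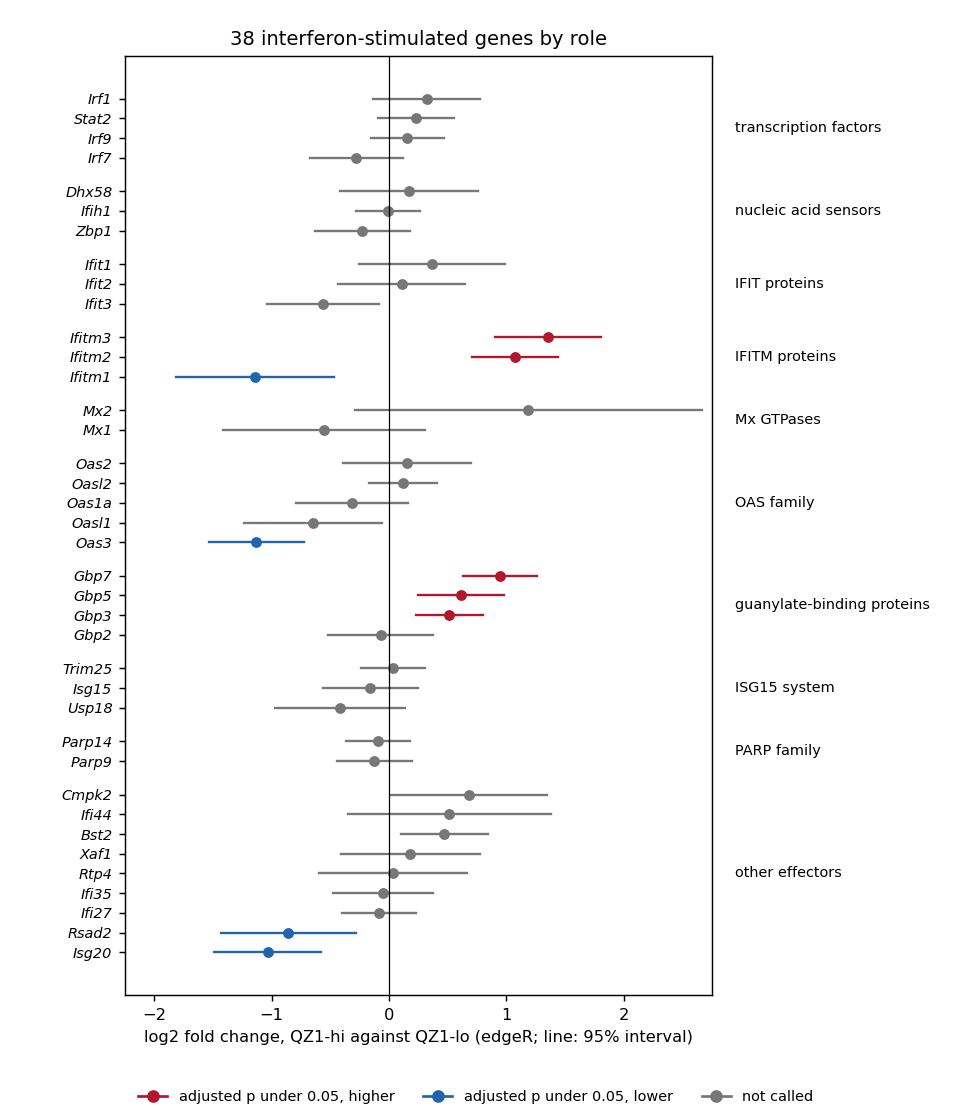
Log2 fold change of the 38 interferon-stimulated genes in QZ1-hi against QZ1-lo, grouped by role (x axis: edgeR estimate, with its 95% interval as a line; red and blue: adjusted p under 0.05, higher or lower; grey: not called). The 3 Ifitm genes lie on both sides of 0, 3 of 4 guanylate-binding protein genes lie above it, and the transcription factors, sensors, IFIT, Mx, ISG15 and PARP genes hold no called gene.

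The scaling of the libraries bears on these directions. With library size alone and no TMM factor, the median over all genes moved to -0.44 and the split of all calls from 1540 higher and 1280 lower to 882 higher and 2509 lower, and the counts among the 38 genes went from 5 higher and 4 lower to 1 higher (Ifitm3) and 6 lower. The median of the 38 genes moved with it, to -0.43. With DESeq2 size factors, or with mitochondrial and ribosomal RNA genes left out, each of the 38 genes kept its sign and its outcome in the test. The median of the 38 genes was then 0.02 and 0.03. The sign of all 9 called genes was kept under every one of the 16 alternatives run.

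The IFITM proteins sit in the plasma and endosomal membranes and hinder the entry of enveloped viruses. Their genes lie close together on chromosome 7 of GRCm38, Ifitm2 at chr7:140954837-140959686 on the minus strand, Ifitm1 at chr7:140967429-140969827 on the plus strand and Ifitm3 at chr7:141009590-141010744 on the minus strand. Ifitm3 (Entrez Gene 66141) stood at 88.9, 101, 108 and 56.8 CPM in QZ1-hi libraries 1 to 4 and at 30.6, 39.0, 41.5 and 27.7 CPM in the QZ1-lo libraries. Every QZ1-hi value was above every QZ1-lo value, and the gene rose 2.55-fold (log2 fold change 1.35, SE 0.21; edgeR adjusted p = 0.00114, n = 4 per population). Ifitm2 (Entrez Gene 80876) stood at 43.5, 38.7, 49.8 and 31.0 CPM in QZ1-hi and at 16.2, 20.7, 21.9 and 18.8 CPM in QZ1-lo. It too was higher without overlap, by 2.10-fold (log2 fold change 1.07, SE 0.17; edgeR adjusted p = 0.00131). Ifitm1 (Entrez Gene 68713), the neighbour between them, stood at 5.42, 8.94, 3.06 and 9.24 CPM in QZ1-hi and at 13.1, 13.7, 14.8 and 17.4 CPM in QZ1-lo. All 4 QZ1-hi values lay below all QZ1-lo values, and the gene was 2.21-fold lower (log2 fold change -1.15, SE 0.31; edgeR adjusted p = 0.0235). The Ifitm1 call was lost without QZ1-hi 1 (adjusted p = 0.0645) and without QZ1-lo 4 (adjusted p = 0.0602), and the Ifitm2 call with library size alone (adjusted p = 0.0984). Of the 50-base stretches of Ifitm2 exons, 48.5% recur in other genes, foremost in Gm45717, an overlapping gene model on the same strand, so its counts could be split. Of those of Ifitm3 10.02% and of those of Ifitm1 5.02% recur in other genes, foremost in Gm7676.

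The levels of the Ifitm genes relative to each other can be read inside each library, where no scaling enters. Such a ratio does not give the direction of either gene alone. The ratio of Ifitm3 counts to Ifitm1 counts was 16.4, 11.3, 35.1 and 6.15 in QZ1-hi and 2.34, 2.85, 2.804 and 1.59 in QZ1-lo. That of Ifitm2 to Ifitm1 was 8.02, 4.33, 16.3 and 3.35 in QZ1-hi and 1.24, 1.52, 1.48 and 1.08 in QZ1-lo. Neither ratio overlapped between the populations. This follows from the CPM values above, where no Ifitm gene overlapped, and so adds no separate support. QZ1-hi 3, the QZ1-hi library with the highest summed endothelial, fibroblast and pericyte markers, had the highest value of both ratios. In QZ1-lo, QZ1-lo 3 had the highest sums of these markers and QZ1-lo 2 the highest value of both ratios. QZ1-lo 3 came close in both ratios, at 2.804 against 2.85 and 1.48 against 1.52. QZ1-lo 4 had the lowest sums of these markers and the lowest value of both ratios. QZ1-hi 1 exceeded QZ1-hi 2 in both ratios and in the endothelial sum, but not in the fibroblast and pericyte sums. A link of the ratios with cell makeup was not tested. These ratios were chosen after the values were seen and carry no test.

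Guanylate-binding proteins are GTPases that are strongly induced by interferon gamma and attack membranes around intracellular pathogens. The 4 listed genes lie in a row on chromosome 3, between Gbp5 at chr3:142496934-142522344 and Gbp2 at chr3:142620663-142638008, all on the plus strand. Gbp7 (chr3:142530336-142550151) stood at 55.9, 61.6, 66.5 and 51.1 CPM in QZ1-hi and at 27.5, 37.1, 31.5 and 26.0 CPM in QZ1-lo. The populations did not overlap, and Gbp7 rose 1.93-fold (log2 fold change 0.95, SE 0.14; edgeR adjusted p = 0.00116), a call lost only with library size alone (adjusted p = 0.153). Of its exon sequence 12.7% is shared with other genes, foremost with the overlapping model Gm43802. Gbp5, which also promotes assembly of the NLRP3 inflammasome, stood at 23.5, 21.6, 31.6 and 23.5 CPM in QZ1-hi and at 14.0, 17.2, 15.4 and 19.1 CPM in QZ1-lo. It was higher by 1.53-fold without overlap (log2 fold change 0.61, SE 0.17; edgeR adjusted p = 0.0260). Gbp3 (chr3:142560016-142573213) was the most even within QZ1-hi, at 49.7, 53.6, 52.0 and 54.9 CPM, against 29.4, 42.6, 39.6 and 35.7 CPM in QZ1-lo. It was higher by 1.43-fold without overlap (log2 fold change 0.51, SE 0.13; edgeR adjusted p = 0.0191). Both smaller calls depended on which libraries were included: that of Gbp5 was lost without QZ1-hi 3 (adjusted p = 0.105), QZ1-lo 1 (0.0781), QZ1-lo 2 (0.0527) or QZ1-lo 3 (0.0593), and that of Gbp3 without QZ1-hi 2 (0.0560), QZ1-lo 1 (0.0520) or QZ1-lo 4 (0.0505). With library size alone the log2 fold changes of Gbp5 and Gbp3 were 0.18 and 0.06.

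Gbp2, the guanylate-binding protein gene with the highest level per kilobase of exon, was the one of the 4 not called. It stood at 75.4 to 121 CPM in QZ1-hi and at 74.8 to 147 CPM in QZ1-lo (log2 fold change -0.07, 95% interval -0.52 to 0.37; edgeR adjusted p = 0.864). The ratio of Gbp7 to Gbp2 counts was 0.546, 0.508, 0.606 and 0.678 in QZ1-hi and 0.267, 0.352, 0.215 and 0.348 in QZ1-lo, again with no overlap and again chosen after the values were seen. Gbp9, a further family member on chromosome 5 that is not among the 38, stood at 20.7 to 45.5 CPM in QZ1-hi and at 12.0 to 22.2 CPM in QZ1-lo. It rose by a log2 fold change of 1.18 (SE 0.27; edgeR adjusted p = 0.00983), a call lost with library size alone (0.0963). Its exons overlap those of Gbp4 and Gbp8 on the same strand. The other listed Gbp genes of chromosome 5 were not called. Their log2 fold changes were 0.86 (Gbp4, edgeR adjusted p = 0.0813), 0.26 (Gbp6), 0.41 (Gbp10), 0.41 (Gbp11) and -0.47 (Gbp8). Of their exon sequence 84.1% (Gbp10), 70.7% (Gbp6), 19.2% (Gbp11), 18.1% (Gbp8) and 7.78% (Gbp4) is shared with other genes. The counts of Gbp10, shared foremost with Gbp6, and of Gbp6, shared foremost with Gm43302, are therefore uncertain.

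**Figure D2:**
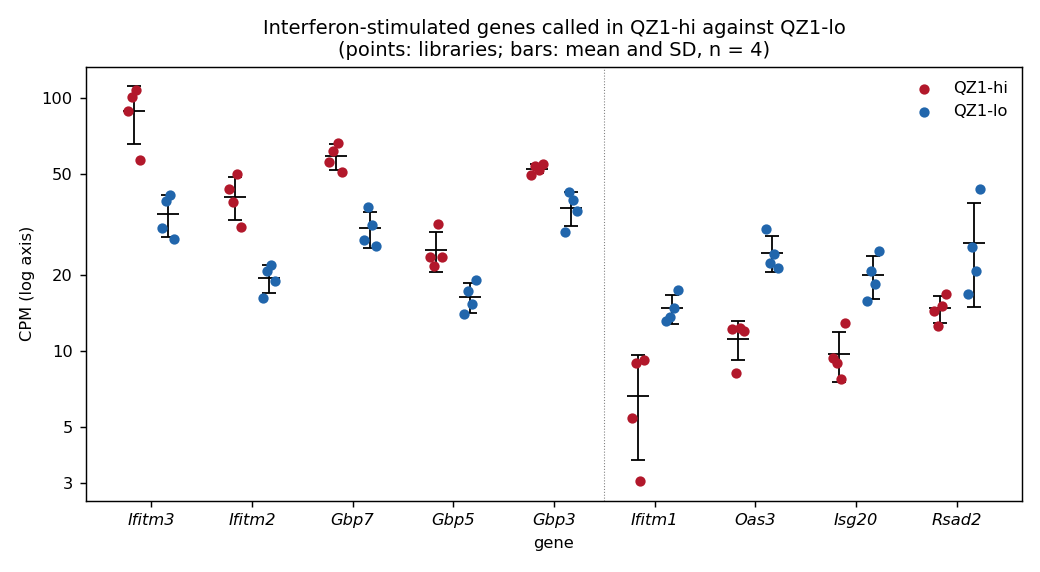
Level of the 9 called interferon-stimulated genes in each library (y axis: CPM on a log axis; points: libraries; black bars: mean and SD, n = 4 per population; red: QZ1-hi; blue: QZ1-lo). The populations are apart for 8 of the 9 genes, while for Rsad2 the highest QZ1-hi value, 16.9 CPM, just exceeds the lowest QZ1-lo value, 16.8 CPM.

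The OAS enzymes make short oligoadenylates in response to double-stranded RNA, which activate RNase L. Oas3 (chr5:120753098-120777684, minus strand), the longest of them, stood at 12.2, 8.20, 12.3 and 12.0 CPM in QZ1-hi and at 30.3, 22.2, 24.1 and 21.4 CPM in QZ1-lo. The gap between the populations was wide against their spread, and Oas3 was 2.19-fold lower in QZ1-hi (log2 fold change -1.13, SE 0.18; edgeR adjusted p = 0.00160), a call kept under all 16 alternatives. Its neighbour Oas2 (chr5:120730333-120749886, minus strand) stood at 16.9, 8.40, 9.54 and 14.8 CPM in QZ1-hi and at 13.1, 10.7, 12.2 and 8.68 CPM in QZ1-lo. Its ranges overlapped almost fully, and it was not called (log2 fold change 0.15, 95% interval -0.39 to 0.70; edgeR adjusted p = 0.749). Within libraries there were 0.775 to 1.39 Oas2 counts for each Oas3 count in QZ1-hi and 0.406 to 0.506 in QZ1-lo, without overlap, a ratio also chosen after the values were seen.

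The remaining OAS genes did not pass the test. Oasl1, an OAS-like protein that holds back translation of Irf7, was at 3.09 to 3.75 CPM in QZ1-hi and at 4.17 to 6.92 CPM in QZ1-lo. These ranges did not overlap, yet the log2 fold change of -0.65 (SE 0.27) was not called (edgeR adjusted p = 0.130) except with library size alone (0.0349). Oas1a stood at 7.80 to 13.3 and 10.3 to 15.5 CPM, with 57.6% of its exon sequence shared with other genes, Oas1g foremost, so that its counts are uncertain. Oasl2, the family's most abundant member per kilobase of exon, was at 48.6 to 54.9 CPM in QZ1-hi and at 39.6 to 56.5 CPM in QZ1-lo (log2 fold change 0.12, SE 0.13; edgeR adjusted p = 0.633).

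**Figure D3:**
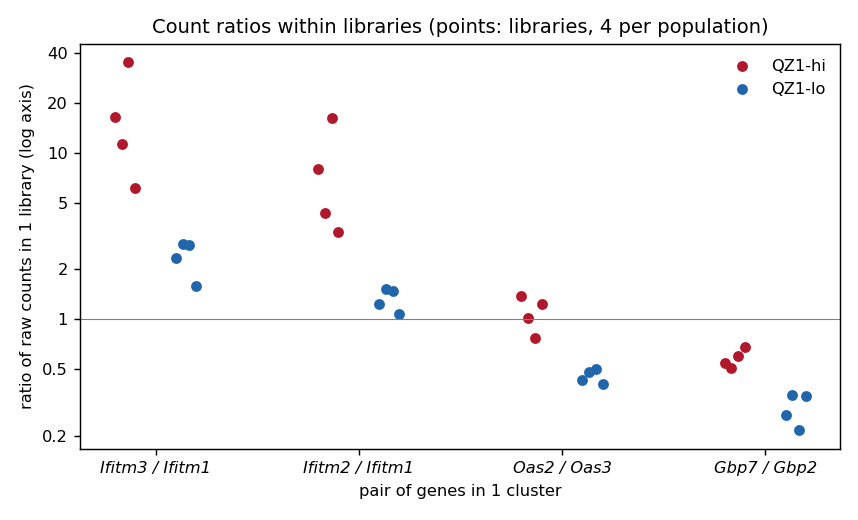
Ratio of raw counts of 2 genes of the same cluster within each library (y axis: ratio, log axis; points: libraries, 4 per population; red: QZ1-hi; blue: QZ1-lo). For each of the 4 pairs every QZ1-hi library lies above every QZ1-lo library, with Ifitm3 to Ifitm1 at 6.15 to 35.1 against 1.59 to 2.85. The pairs were chosen after the values were seen and carry no test.

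Isg20 and Rsad2 were the other genes that fell. Isg20, an exonuclease that degrades single-stranded RNA (chr7:78913396-78920396, plus strand), stood at 9.36, 8.94, 7.75 and 12.9 CPM in QZ1-hi and at 15.7, 20.7, 18.4 and 24.9 CPM in QZ1-lo. It was 2.05-fold lower without overlap (log2 fold change -1.03, SE 0.21; edgeR adjusted p = 0.00521), a call kept under all 16 alternatives. Rsad2 encodes viperin, which makes a chain-terminating nucleotide from CTP (chr12:26442743-26456452, minus strand). It stood at 14.4, 12.6, 15.1 and 16.9 CPM in QZ1-hi and at 16.8, 25.8, 20.7 and 43.5 CPM in QZ1-lo, so that QZ1-lo 4 was far above the other QZ1-lo libraries and the populations touched. The gene was 1.81-fold lower (log2 fold change -0.86, SE 0.26; edgeR adjusted p = 0.0441), but the call was lost in 7 of 16 alternatives: with limma-voom (0.0833) and without QZ1-hi 1 (0.0932), QZ1-hi 2 (0.100), QZ1-hi 3 (0.0811), QZ1-hi 4 (0.0718), QZ1-lo 2 (0.0822) or QZ1-lo 4 (0.106, log2 fold change -0.52). Cmpk2 lies beside Rsad2 on chromosome 12 and encodes a mitochondrial nucleotide kinase. Its values were 9.07, 10.7, 17.8 and 6.91 CPM in QZ1-hi and 7.99, 4.56, 7.49 and 7.65 CPM in QZ1-lo, and its positive log2 fold change of 0.68 (SE 0.30) was not called (edgeR adjusted p = 0.161).

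The transcription factors that carry the interferon response were not called in either direction. Irf1, an early target of interferon gamma, was the most abundant of the 4 per kilobase of exon, at 85.0, 112, 168 and 103 CPM in QZ1-hi and at 86.4, 96.7, 118 and 74.6 CPM in QZ1-lo (log2 fold change 0.32, SE 0.21; edgeR adjusted p = 0.360). Stat2 and Irf9, members of the complex that binds the ISRE, gave log2 fold changes of 0.23 (95% interval -0.10 to 0.55) and 0.15 (-0.16 to 0.47). Irf7, which amplifies type I interferon production, gave -0.28 (-0.68 to 0.12). For each of the 4 the ranges of the populations overlapped.

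Among the sensors, Ifih1, which encodes the long double-stranded RNA sensor MDA5, stood at 32.6 to 40.5 CPM in QZ1-hi and at 34.6 to 42.9 CPM in QZ1-lo (log2 fold change -0.01, SE 0.12; edgeR adjusted p = 0.964). Its 95% interval, -0.29 to 0.26, was among the narrowest of the list. Dhx58, the related helicase LGP2, was at 5.33 to 10.5 and 5.21 to 8.71 CPM, and Zbp1, the sensor of Z-form nucleic acid that can start necroptosis, at 15.6 to 24.1 and 18.2 to 27.6 CPM. Neither was called.

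IFIT proteins bind RNA, and IFIT1 recognises caps that lack the methylation of host messages. Ifit3 stood at 18.5, 30.2, 23.8 and 15.9 CPM in QZ1-hi and at 31.5, 42.8, 30.3 and 26.1 CPM in QZ1-lo. Only QZ1-hi 2 reached into the QZ1-lo range, and the log2 fold change of -0.56 (SE 0.22; edgeR adjusted p = 0.105) passed the threshold without that library (-0.77, adjusted p = 0.0301) and with library size alone (-1.01, 0.00974). Its counts are uncertain, since 51.2% of its exon sequence is shared with other genes, Ifit3b foremost. Ifit1 stood at 9.65 to 30.0 and 12.0 to 16.2 CPM, Ifit2 at 16.6 to 34.1 and 14.9 to 25.3 CPM, and neither was called.

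Mx1 and Mx2, genes of the dynamin-like GTPase family, were the least abundant pair per kilobase of exon. Mx1 was at 1.33 to 4.53 CPM in QZ1-hi and at 3.11 to 5.75 CPM in QZ1-lo (log2 fold change -0.56, SE 0.39; edgeR adjusted p = 0.402). Mx2 had the widest interval of the 38, with 0.636, 2.96, 5.43 and 4.23 CPM in QZ1-hi and 1.13, 3.17, 0.688 and 0.819 CPM in QZ1-lo (log2 fold change 1.19, 95% interval -0.29 to 2.66; edgeR adjusted p = 0.283). A difference of either sign in Mx2 was not resolved by these libraries.

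The ISG15 system conjugates a ubiquitin-like protein to other proteins. Isg15 itself was even across all libraries, at 6.44 to 7.31 CPM in QZ1-hi and at 7.06 to 8.05 CPM in QZ1-lo, with a log2 fold change of -0.16 (95% interval -0.57 to 0.25; edgeR adjusted p = 0.636). Usp18, which removes ISG15 and damps receptor signalling, was at 4.59 to 7.05 and 5.33 to 9.88 CPM (log2 fold change -0.42, edgeR adjusted p = 0.319). Trim25, the ubiquitin ligase that aids RIG-I, was at 66.6 to 94.6 and 74.7 to 80.6 CPM (log2 fold change 0.03, SE 0.12; edgeR adjusted p = 0.903).

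The PARP genes and the other effectors held no further call. Parp14, an ADP-ribosyltransferase, was at 85.1 to 104 CPM in QZ1-hi and at 81.6 to 108 CPM in QZ1-lo (log2 fold change -0.09, SE 0.13; edgeR adjusted p = 0.693), and Parp9 at 26.2 to 33.7 and 26.4 to 37.8 CPM. Bst2, or tetherin, which holds budding virus at the cell surface, stood at 17.9, 14.8, 16.1 and 14.2 CPM in QZ1-hi and at 13.9, 10.9, 10.8 and 9.90 CPM in QZ1-lo. Its populations did not overlap, but the log2 fold change of 0.47 (SE 0.17) was not called (edgeR adjusted p = 0.0799). Ifi27 was at 23.1 to 31.5 and 24.8 to 31.6 CPM (log2 fold change -0.08, SE 0.14; edgeR adjusted p = 0.766). Ifi35 (11.4 to 20.8 and 16.6 to 20.6 CPM), Ifi44 (3.90 to 7.84 and 1.80 to 6.33 CPM), Rtp4 (10.03 to 17.3 and 7.12 to 19.3 CPM) and the apoptosis factor Xaf1 (5.78 to 10.2 and 4.50 to 8.50 CPM) overlapped between the populations. Ifi35 shares 17.4% of its exon bases with Gm11626 and Parp9 10.3% with Dtx3l on the opposite strand, and as the strand setting of the counting is not given in the sources used here, those reads cannot be assigned with certainty.

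The intervals give the size of difference that the data still allow for the genes not called. Of the 29 not called, 23 had a 95% interval of the log2 fold change that lay inside ±1, and 6 had an interval that reached 1 in either direction. Their log2 fold changes ran from -0.65 to 1.19 with SEs of 0.12 to 0.67. Unadjusted, 13 of the 38 (34.2%) had a p under 0.05, beside 28.9% of all genes tested.

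Per kilobase of exon, which allows levels to be compared between genes, the order at the top differed between the populations. In QZ1-hi Ifitm3 led with a mean of 131 CPM per kilobase, followed by Ifitm2 with 62.2, Gbp2 with 40.6 and Irf1 with 35.1. In QZ1-lo Ifitm3 still led with 51.2 CPM per kilobase, but Gbp2 with 42.7 preceded Ifitm2 with 29.7 and Irf1 with 28.1. The values within each of these orders were not tested against each other. Ifitm1 held 6.09 CPM per kilobase in QZ1-hi and 13.5 in QZ1-lo, and Mx2 was the lowest in QZ1-lo with 0.600 and Mx1 the lowest in QZ1-hi with 0.900.

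**Figure D4:**
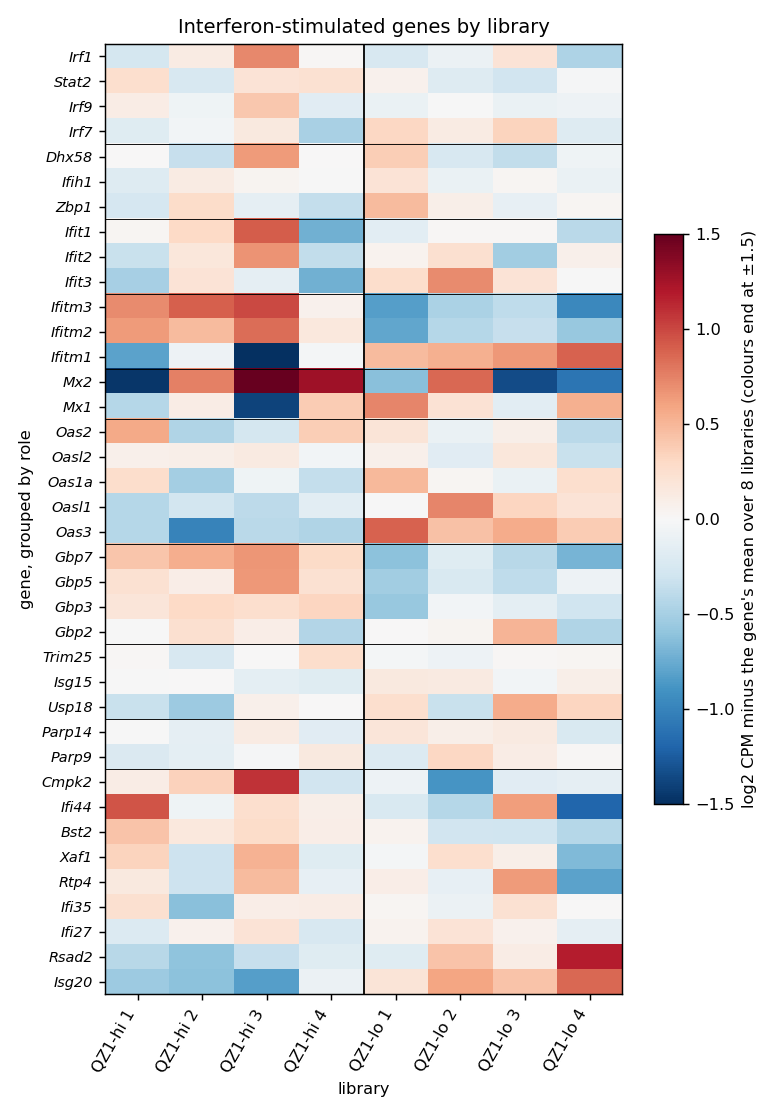
Level of each of the 38 genes in each library, as log2 CPM minus the mean of that gene over the 8 libraries (colour scale in log2 units; rows grouped by role; QZ1-hi left, QZ1-lo right of the line). The called Ifitm, Gbp, Oas3 and Isg20 rows change colour at the line, whereas most other rows vary as much within a population as between them, with QZ1-hi 3 red in many rows.

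How often each library held the highest or lowest value of its population was counted for the 38 genes only. The same counts over all genes tested were not made, so a trait of this list cannot be read from them. QZ1-hi 3 had the highest value of the 4 QZ1-hi libraries for 19 of the 38 genes, and QZ1-hi 4 the lowest for 16. QZ1-lo 4 had the lowest of the 4 QZ1-lo libraries for 16, and the highest for 5, among them Ifitm1, Isg20 and Rsad2. The mean log2 CPM over the 38 genes was 4.16, 4.15, 4.36 and 4.14 in QZ1-hi and 4.20, 4.23, 4.21 and 4.06 in QZ1-lo, so the difference between libraries of a population was as wide as that between populations. Without QZ1-hi 3 the median log2 fold change of the list went from 0.03 to -0.10.

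The rest of the pathway was read from a further 95 genes, of which 85 could be tested and 9 were called (10.6%, beside the 18.1% of all genes), 5 higher and 4 lower, with a median log2 fold change of 0.09. Of 11 interferon genes, 8 had no count in any library (Ifnb1, Ifna1, Ifna2, Ifna4, Ifna5, Ifne, Ifnl2 and Ifnl3). Interferon gamma (Ifng) was at 0.0424, 2.52, 0.116 and 0.536 CPM in QZ1-hi and 0.596, 0.976, 0.615 and 0.409 CPM in QZ1-lo. Ifnk, an interferon known from keratinocytes, was at 0.466, 0.346, 0 and 0.656 CPM in QZ1-hi and 0.268, 0.732, 0.0724 and 0.900 CPM in QZ1-lo, and Ifnz had at most 3 counts in any library. Neither Ifng (log2 fold change 0.31, SE 1.00; edgeR adjusted p = 0.882) nor Ifnk (-0.41, SE 1.01; 0.844) was called. A count of 0 allows up to 0.0894 to 0.179 CPM, depending on the library. Part of the sequence of some genes at 0 recurs in other genes: 67.4% for Ifna1, 52.2% for Ifna5, 38.8% for Ifnl3 and 31.7% for Ifnl2. How reads shared between genes were counted is not given in the sources used here, so such reads could be missing from these counts.

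The receptors of the type I and type II interferons were present in both populations and not called. Ifnar2, which encodes a chain of the type I receptor, came nearest. Its values were 35.3, 41.1, 37.0 and 27.4 CPM in QZ1-hi and 27.6, 29.4, 17.6 and 20.1 CPM in QZ1-lo. The log2 fold change was 0.57 (SE 0.19, edgeR adjusted p = 0.0610). It passed the threshold with DESeq2 (0.0471), without QZ1-hi 4 (0.0336) and without QZ1-lo 2 (0.0443). The log2 fold changes of Ifnar1, Ifngr1 and Ifngr2 were 0.22 (SE 0.16), 0.28 (SE 0.11) and -0.28 (SE 0.18). Ifnlr1, the specific chain of the type III interferon receptor and known for its epithelial expression, was called: it stood at 5.42, 4.69, 3.47 and 5.12 CPM in QZ1-hi and at 11.4, 13.1, 12.7 and 10.7 CPM in QZ1-lo, and fell by 1.35 on the log2 scale (SE 0.21; edgeR adjusted p = 0.00116). Beside it, the 6 airway epithelial markers were all lower in QZ1-hi. Of the 9 alveolar epithelial markers, Epcam (log2 fold change -1.17), Ager (-0.76) and Hopx (-0.52) were lower. Sftpc (0.78) was higher, a call lost in 4 of 16 alternatives, and the median log2 fold change of the 9 was 0.12. The study also lists Epcam as a marker of club cells and ciliated epithelium. A link of the Ifnlr1 difference with cell makeup was not tested.

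Of the inhibitors downstream of the receptors, Socs3, which blocks JAK kinases bound to cytokine receptors, was at 212, 199, 332 and 174 CPM in QZ1-hi against 117, 119, 139 and 113 CPM in QZ1-lo and rose (log2 fold change 0.91, SE 0.19; edgeR adjusted p = 0.00597), a call lost with library size alone (0.226). Pias1, a SUMO ligase that restrains interferon signalling, fell (log2 fold change -0.79, SE 0.14; edgeR adjusted p = 0.00226). None of the 16 upstream sensors and adaptors was called.

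Further interferon-stimulated genes outside the list of 38 also went both ways, with 4 higher and 2 lower of 50 tested (12.0% called, below the 18.1% of all genes). Slfn5, a Schlafen family member, had the largest difference, at 117, 112, 163 and 87.4 CPM in QZ1-hi against 20.5, 25.9, 37.7 and 14.4 CPM in QZ1-lo (log2 fold change 2.28, SE 0.28; edgeR adjusted p = 0.000452). Of its exon bases 9.26% overlap Slfn5os on the opposite strand. Ifi203 and Ifi204, p200 family genes for nuclear DNA-binding proteins, also rose, Ifi203 by 1.53 on the log2 scale with an SE of 0.20 and Ifi204 by 0.97 with an SE of 0.20. The Ifi204 call was lost with library size alone (adjusted p = 0.215). Of their exon sequence 12.4% and 20.02% is shared with other genes, foremost with Ifi203-ps and Ifi211. Tgtp1 and Tgtp2, near-identical immunity-related GTPase genes whose reads cannot be told apart with certainty, fell by 1.20 (SE 0.22) and 0.81 (SE 0.20) on the log2 scale.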

How the data were processed

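Raw counts per gene of 8 libraries (SMARTer stranded total RNA) were deposited by the authors, who made them with Rsubread from aligned reads without normalization. The submitters' processing notes name mm10 and DESeq2, and the aligner, annotation and strand setting are not given in the sources used here. The deposited counts were used as they stand. Entrez identifiers were matched to symbols for 25275 of 27179 genes. The 38 genes, the further pathway list, the marker lists and the named genes were chosen with earlier results of these data known. Named genes were all 38, with full statistics for those called and the highest by CPM of each role, then Ifnar1, Ifnar2, Ifngr1, Ifngr2, called pathway genes, and the markers Cdh5, Pdgfrb, Col1a1, Epcam, Sftpc, Foxj1 and Ptprc. Other pathway genes (Ifng, Ifnk, Ifnz and those at 0) were named after their values were seen. A further gene of the rule is not reported here.

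Genes were filtered with filterByExpr (minimum count 10, minimum total 15), scaled by TMM and tested with edgeR 4.0.16 in R 4.3.3 (glmQLFit, glmQLFTest; common dispersion 0.113), QZ1-hi against QZ1-lo with no covariate, two-sided, with Benjamini-Hochberg adjustment over 15583 genes. The threshold was an adjusted p under 0.05. The labels do not say that libraries come from separate mice, so p-values measure the spread between these libraries. Simulated counts with 200 changed genes were used to check the procedure. The alternatives were DESeq2 1.42.0, limma-voom 3.58.1, other scalings, filters and thresholds, and leaving out each library. Totals were 18380918 to 26847938 counts. Exon positions and shared 50-base stretches came from GENCODE on GRCm38, promoters from RefSeq on GRCm38.p6.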

Additional observations from a re-analysis of the deposited data

Results flagged for a closer look

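Of 118 sets of 4 library values examined for a value far from the other 3 (past Dixon's 95% critical value), 3 held one, where chance gives about 1 in 20. Stat2 in QZ1-hi 2 was low, at 25.3 CPM, with the other QZ1-hi libraries at 34.5 to 35.5 CPM. Oas3 in QZ1-hi 2 was low, at 8.20 CPM, with the others at 12.0 to 12.3 CPM, all still below the QZ1-lo libraries. Cmpk2 in QZ1-lo 2 was low, at 4.56 CPM, with the other QZ1-lo libraries at 7.49 to 7.99 CPM.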

How the results depend on the processing

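At an adjusted p under 0.01, 3 of the 38 genes were higher and 2 lower, fewer by the construction of the threshold. With library size alone the counts were 1 higher and 6 lower, the further pathway genes gave 2 higher and 12 lower, and the median log2 fold change of the 38 genes was -0.43, beside -0.44 for all genes. Leaving out 1 library at a time gave 3 to 5 higher and 2 to 4 lower among the 38 genes, with fewest higher without QZ1-lo 1 and fewest lower without QZ1-hi 1 or QZ1-lo 4, and a median of -0.10 (without QZ1-hi 3) to 0.0857 (without QZ1-hi 2). DESeq2 gave 5 higher and 4 lower, and limma-voom 5 and 3. Ifitm3, Oas3 and Isg20 kept their call in all 16 alternatives.

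Genes that changed sign were not called in any of these settings. With library size alone the log2 fold changes were -0.23 (Stat2), -0.15 (Irf1), -0.28 (Irf9), -0.29 (Dhx58), -0.0488 (Ifit1), -0.32 (Ifit2), -0.30 (Oas2), -0.36 (Oasl2), -0.44 (Trim25), -0.42 (Rtp4), -0.22 (Xaf1), -0.23 (Ifnar1), -0.18 (Ifngr1) and -0.49 (Ptprc). With limma-voom they were -0.0051 (Ifit2), 0.0383 (Gbp2) and -0.12 (Ptprc). With 1 library left out they ran over Ifih1 -0.0774 to 0.0586, Oas2 -0.0327 to 0.28, Ifi35 -0.15 to 0.0859, Dhx58 -0.0859 to 0.34, Ifit2 -0.17 to 0.26, Rtp4 -0.16 to 0.30, Xaf1 -0.0006 to 0.30, Gbp2 -0.21 to 0.11, Trim25 -0.0316 to 0.0896, Ifi27 -0.20 to 0.0089 and Ptprc -0.30 to 0.26. The causes were not tested. No paired analysis was possible because no number in the labels ties libraries of the populations to each other, and replicate numbers only name libraries.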
